A study of Homo sapiens with 6 samples.

Results

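The genes described here are 10 that encode secreted regulators of blood and lymph vessel growth: VEGFA, VEGFB, VEGFC, PGF, FGF2, PDGFA, ANGPT1, ANGPT2, ANGPTL4 and THBS1. They were chosen by the gene symbol of the array annotation, which gave 1 probe set for each of the 10 among 18417 named genes. They were followed in the uveal melanoma lines 92.1 and Mel 270, with Mel 290 as the third, which derive from pigment cell tumours of the eye. In the co-culture group each line was grown for 64 h in serum-free medium below a 0.4 µm porous insert that held T cells from healthy volunteers, activated with beads against CD3 and CD28, at 1500000 per well in 3 ml. In the group grown alone each line had the same medium and time and no T cells. No insert or volume is given for these wells, so an effect of either cannot be told apart from that of the T cells. There were 3 arrays per group, 1 for each line and condition, so the lines are the replicates, and each is an established line without repeat cultures. The wells had 80000 cells of 92.1 and 100000 of the other lines, and when serum was taken away Mel 290 had filled its wells while the others had not, so cell density and line cannot be told apart. Since only the scraped melanoma cells were measured, growth factors made by the T cells themselves were outside the sample.

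VEGFA is the main driver of new blood vessels, and acts on endothelial cells through the receptors encoded by KDR and FLT1. VEGFB and PGF bind the FLT1 product but not that of KDR, while VEGFC acts mainly through that of FLT4 and makes lymph vessels grow. FGF2 and PDGFA act on fibroblast growth factor receptors and on the receptor encoded by PDGFRA, ANGPT1 and ANGPT2 are opposed ligands of the TEK receptor, ANGPTL4 is a secreted inhibitor of lipoprotein lipase, and THBS1 encodes thrombospondin-1, an inhibitor of vessel growth that binds CD36 and CD47. The inside of the eye has few lymph vessels, and uveal melanoma spreads mainly through the blood.

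All values are log2 probe set signals, on which a difference of 1 is a 2-fold change, and levels of different genes cannot be compared because their probes differ. Array medians lay between 6.63 and 6.69. Genes with a mean signal under 5.80, the 25th percentile of annotated probe sets, were not tested. That left 13808 genes and 8 of the 10 vessel regulators, without ANGPT1 and ANGPT2. Co-culture was compared with growth alone in limma with the line as a block, and a gene was called at a Benjamini-Hochberg adjusted p under 0.05 over all tested genes. Of 7 markers of pigment cells, all were called lower in Mel 290 than in the other lines. There TYRP1, TYR and MLANA lay below 5.80 in both cultures and PMEL at 5.97 in co-culture and 6.10 alone, whereas the lineage factors MITF (8.16 in co-culture, 8.96 alone) and SOX10 (7.25 in co-culture, 6.84 alone) stayed above it. SLC45A2 had 5.27 in co-culture and 6.66 alone in Mel 290, and was not called with low values raised to 5.80 (limma adjusted p = 0.080). Of 11 T cell markers, 4 or 5 lay above the filter level on each array, among them CD7 and CD8A, and none of the 4 tested was called. CD3D, CD3E, CD3G, CD2, CD5 and PTPRC lay below 5.80 on all 6 arrays. The summed signal of the list was 740 to 880 in co-culture and 728 to 833 alone. Of 10 endothelial markers, PECAM1, VWF, CDH5, KDR, TEK, TIE1 and ESAM lay below 5.80 on every array and CLDN5 and ROBO4 above it. EMCN lay below 5.80 in Mel 290, and had 10.98 in 92.1 and 7.22 in Mel 270 in co-culture, against 10.58 and 10.97 alone. The summed signal of that list was 523 to 2447 in co-culture and 510 to 2497 alone.

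The first question was whether co-culture with activated T cells changed the RNA levels of vessel growth factor genes in the melanoma cells. None of the 8 tested genes was called, against 0.449% of all tested genes (0.413% higher, 57 genes, and 0.0362% lower, 5 genes). In bulk cultures fewer cells of a type and less RNA per cell cannot be told apart. VEGFA and PDGFA were nonetheless higher in co-culture in 3 of 3 lines, VEGFB, FGF2, PGF and THBS1 were lower in 3 of 3, THBS1 with signals under 5.80 in 92.1 and Mel 270, and VEGFC and ANGPTL4 went in different directions. Over all tested genes, 16.2% were higher and 25.5% lower in all 3 lines. At an unadjusted p under 0.05, VEGFA and PDGFA were higher and VEGFB and FGF2 lower, and so were 7.02% and 13% of all tested genes. The median difference of the 8 was -0.04, the same as the -0.04 of all tested genes.

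**Figure D1:**
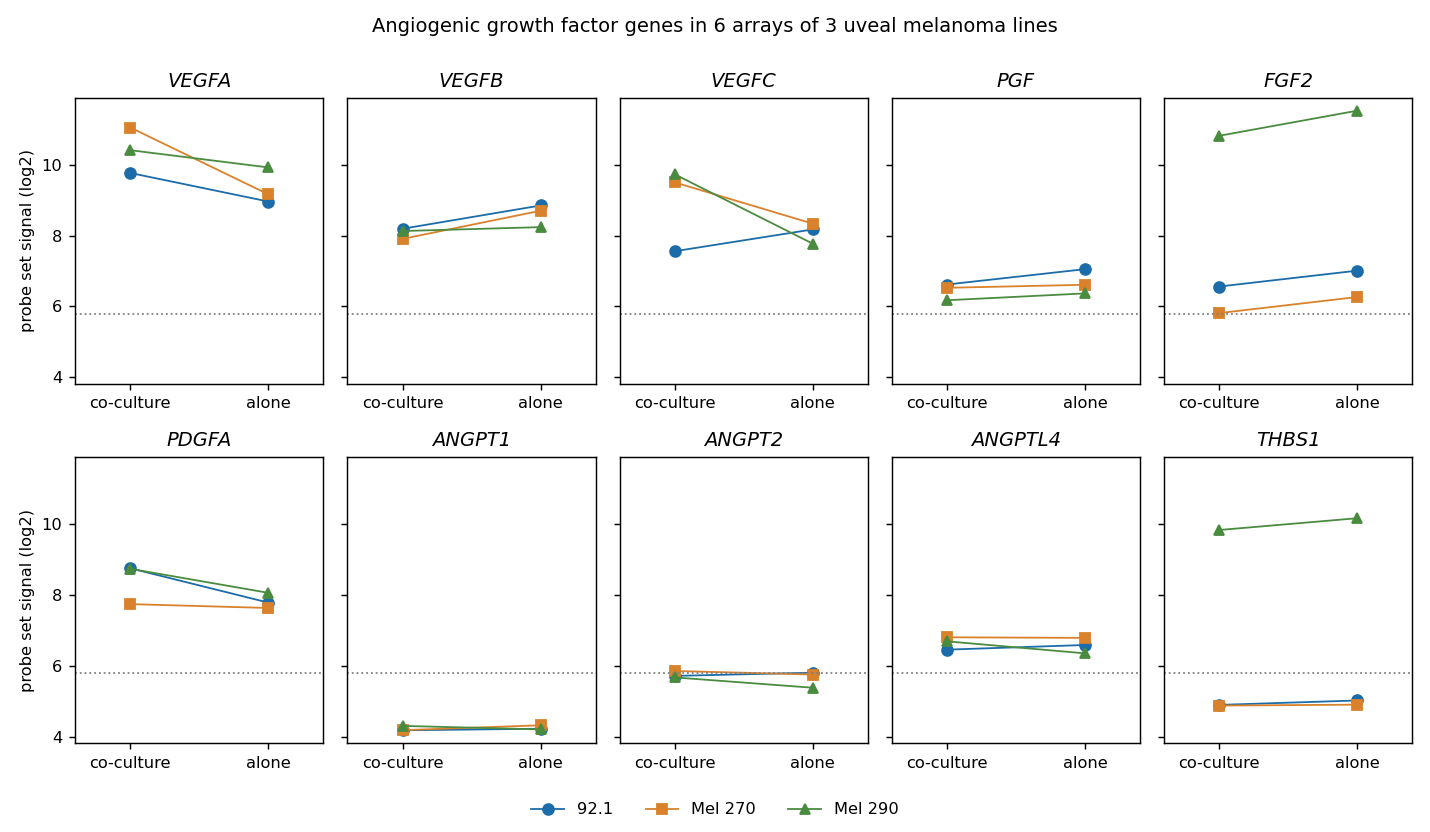
Log2 probe set signal (vertical axis) of each of the 10 genes in co-culture (left) and alone (right), with 1 point per array and a line joining the arrays of 1 cell line. The dotted line is the filter level of 5.80. FGF2 and THBS1 in Mel 290 stand far above the other lines, VEGFA slopes down from co-culture to alone in each line, and VEGFC splits the lines.

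VEGFA had signals of 9.77 in 92.1, 11.06 in Mel 270 and 10.42 in Mel 290 in co-culture, against 8.97, 9.17 and 9.93 in the same lines alone. Every line was higher with T cells, but the groups overlapped, since Mel 290 alone was above co-cultured 92.1. The difference was 1.06 ± 0.73 (SD, n = 3 lines), a 2.09-fold higher level on average. It was 0.81 in 92.1, 1.89 in Mel 270 and 0.49 in Mel 290. The limma adjusted p was 0.14, and the unadjusted 95% interval reached from 0.32 to 1.80. Without Mel 270 the difference was 0.65. Mel 270 thus had the highest of the 6 values in co-culture and the next to lowest alone. No neighbours in the order of the 6 arrays were further apart than the SD of the difference.

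PDGFA encodes the A chain of platelet-derived growth factor, which attracts fibroblasts and other supporting cells. Its signals were 8.76 in 92.1, 7.75 in Mel 270 and 8.75 in Mel 290 in co-culture, against 7.79, 7.64 and 8.07 alone. Both 92.1 and Mel 290 in co-culture lay above every array grown alone, and co-cultured Mel 270 lay among them. The difference was 0.59 ± 0.44 (limma adjusted p = 0.20, unadjusted 95% interval 0.08 to 1.09). Its receptor gene PDGFRA was low in the melanoma cells, with a highest signal of 6.13, in co-cultured Mel 270. The 250 bases before the first of the 4 PDGFA starts in RefSeq are shown because GC boxes, the GGGCGG sites of SP1 and related factors, are a known feature of this promoter. They are on the minus strand of GRCh38.p14 at chr7:520227-520476, and the capitals mark GGGCGG on either strand.
PDGFA: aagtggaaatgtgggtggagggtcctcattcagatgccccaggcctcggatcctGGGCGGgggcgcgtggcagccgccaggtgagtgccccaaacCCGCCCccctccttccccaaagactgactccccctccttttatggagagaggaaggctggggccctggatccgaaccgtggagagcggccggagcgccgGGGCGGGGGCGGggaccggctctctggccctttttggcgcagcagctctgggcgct
The window holds 4 matches, of which the last pair stand end to end, and 42.6% of 35116 RefSeq windows of this length hold at least 1.

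VEGFC divided the lines. Its signals were 7.56 in 92.1, 9.51 in Mel 270 and 9.73 in Mel 290 in co-culture, against 8.18, 8.34 and 7.77 alone. Mel 290 was 1.96 higher with T cells and Mel 270 was 1.17 higher, while in 92.1 the difference was -0.62. Co-culture therefore held both the 2 highest values and the lowest one. The mean difference of 0.84 ± 1.32 was smaller than its SD (limma adjusted p = 0.43, unadjusted 95% interval -0.42 to 2.09). It was 1.56 without 92.1 and 0.28 without Mel 290, and not called either way. With 1 array per line and condition, whether the lines differ in this response could not be tested. A search of the same window of VEGFC, on the minus strand at chr4:176792923-176793172, found 1 match to the NF-kappaB consensus, in capitals below. It is shown because NF-kappaB is the factor through which many inflammatory cytokines act.
VEGFC: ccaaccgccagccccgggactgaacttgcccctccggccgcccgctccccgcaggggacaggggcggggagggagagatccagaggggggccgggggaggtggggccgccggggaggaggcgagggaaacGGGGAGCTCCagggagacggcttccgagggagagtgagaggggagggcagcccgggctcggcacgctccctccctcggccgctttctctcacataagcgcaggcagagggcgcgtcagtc
The consensus occurs in 9.96% of all windows on either strand, and of the 7 genes here with a RefSeq window VEGFC alone had a match. A match describes the letters only. VEGFC is made as a precursor, and among the genes for its processing factors CCBE1 lay at 4.76 in 92.1, 5.24 in Mel 270 and 9.75 in Mel 290 in co-culture, against 5.38, 5.35 and 10.11 alone. It differed by -0.36 ± 0.25 with T cells (limma adjusted p = 0.27). The receptor gene FLT4 stayed between 5.99 and 6.30 in co-culture and between 6.10 and 6.36 alone. FURIN, a protease that cuts the precursor, differed by 0.27 ± 0.65 (limma adjusted p = 0.65).

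VEGFB, whose product acts on vessel survival and fatty acid uptake more than on sprouting, was the only one of the 8 tested genes with groups that did not overlap. Its signals were 8.20 in 92.1, 7.91 in Mel 270 and 8.13 in Mel 290 in co-culture, against 8.85, 8.71 and 8.24 alone. All co-cultures lay below all arrays alone, as was the case for 5.96% of all tested genes, while 4.03% had all co-cultures above. Mel 290 alone and co-cultured 92.1 were the closest pair across the groups. The difference was -0.52 ± 0.36 (limma adjusted p = 0.20, unadjusted 95% interval -0.97 to -0.07). Across the 6 arrays VEGFB was low where VEGFA was high (r = -0.95, n = 6 arrays that share lines and cultures). PGF, the other FLT1 ligand, had 6.62 in 92.1, 6.53 in Mel 270 and 6.17 in Mel 290 in co-culture, against 7.05, 6.61 and 6.37 alone, a difference of -0.24 ± 0.18 (limma adjusted p = 0.41).

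FGF2 had signals of 6.56 in 92.1, 5.81 in Mel 270 and 10.82 in Mel 290 in co-culture, against 7.01, 6.27 and 11.53 alone. The groups overlapped because the lines lay so far apart, yet each line was lower with T cells. The difference was -0.45 in 92.1, -0.45 in Mel 270 and -0.71 in Mel 290, with a mean of -0.54 ± 0.15. The limma adjusted p of 0.12 was the lowest of the 8 genes, and the unadjusted 95% interval reached from -0.87 to -0.20. THBS1 had 4.90 in 92.1, 4.88 in Mel 270 and 9.84 in Mel 290 in co-culture, against 5.03, 4.91 and 10.18 alone. It differed by -0.16 ± 0.16 (limma adjusted p = 0.58). ANGPTL4 had 6.46 in 92.1, 6.81 in Mel 270 and 6.70 in Mel 290 in co-culture, against 6.59, 6.79 and 6.36 alone, a difference of 0.07 ± 0.24 (limma adjusted p = 0.85). The angiopoietin genes were near the low end of the scale: ANGPT1 ranged from 4.18 to 4.31 in co-culture and from 4.21 to 4.32 alone. ANGPT2 ranged from 5.68 to 5.86 in co-culture and from 5.39 to 5.81 alone. Neither was tested, since their means lay under the filter level.

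**Figure D2:**
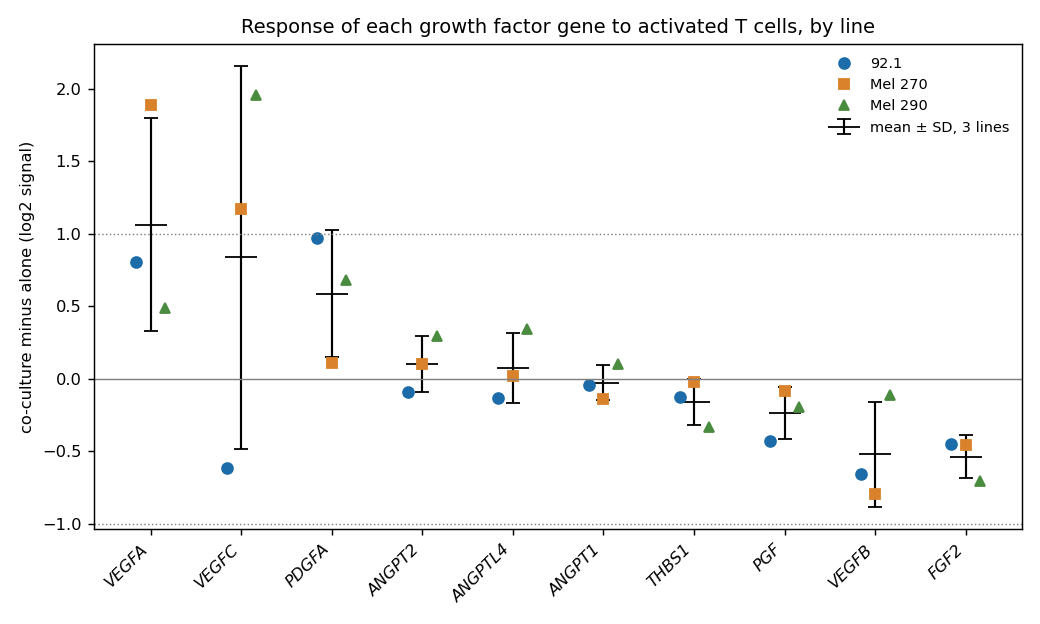
Difference between co-culture and growth alone in log2 signal (vertical axis) for each of the 10 genes, with 1 symbol per line and the mean ± SD of 3 lines in black. Dotted lines mark a 2-fold difference, which is passed by VEGFA in Mel 270 and by VEGFC in Mel 270 and Mel 290.

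Counted line by line, without a test, VEGFA and VEGFC were at least 2-fold higher with T cells in Mel 270, where 5.29% of tested genes were. VEGFC was at least 2-fold higher in Mel 290, against 2.07% of tested genes. No member was in 92.1 (3.63% of tested genes), and none of the 10 was at least 2-fold lower in any line, against 2.71% in 92.1, 4.52% in Mel 270 and 2.3% in Mel 290.

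The second question was how the lines differ in these genes whatever the culture. FGF2 and THBS1 were called higher in Mel 290 than in the mean of the other lines, and the other 6 tested genes were not, against 11.3% of tested genes called higher and 14.9% lower. Both genes had their 2 Mel 290 arrays above the other 4, as did 17.7% of tested genes. For FGF2 the Mel 290 arrays, at 10.82 in co-culture and 11.53 alone, lay 3.81 or more above all others, and every neighbouring pair of the 6 arrays was further apart than the SD of the culture difference. The line difference was 4.77 with SE 0.14, a 27.2-fold higher level (limma adjusted p = 0.00035). THBS1 lay between 4.88 and 5.03 in the lines other than Mel 290. It passed the filter only through Mel 290, so it had to differ between lines. The difference was 5.08 with SE 0.14 (limma adjusted p = 0.00035), or at least 18.5-fold once low values were raised to 5.80. The SE and p of such line contrasts rest on the spread left after line and culture, not on repeat cultures of a line.

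FGF2 and THBS1 kept nearly the same profile over the arrays (r = 0.99, n = 6 arrays, set by the gap between Mel 290 and the rest). Their promoters are shown because these are the strongest differences among the 10 genes. The window of FGF2, on the plus strand at chr4:122826581-122826830, has its GC boxes (GGGCGG on either strand) in capitals. That of THBS1, on the plus strand at chr15:39580829-39581078, has in capitals a match to GGAATG, a core motif of the TEAD factors that work with YAP.
FGF2: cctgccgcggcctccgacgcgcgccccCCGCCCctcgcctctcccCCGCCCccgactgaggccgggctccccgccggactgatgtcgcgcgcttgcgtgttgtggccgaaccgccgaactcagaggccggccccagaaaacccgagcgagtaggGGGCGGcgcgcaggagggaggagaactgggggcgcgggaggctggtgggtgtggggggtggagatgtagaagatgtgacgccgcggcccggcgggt
THBS1: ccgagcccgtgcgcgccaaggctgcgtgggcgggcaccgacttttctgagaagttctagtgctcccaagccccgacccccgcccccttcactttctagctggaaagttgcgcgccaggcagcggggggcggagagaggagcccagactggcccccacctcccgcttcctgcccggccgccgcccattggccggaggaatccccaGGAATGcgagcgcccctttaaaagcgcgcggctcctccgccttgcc
FGF2 had 3 GC boxes and THBS1 4, and neither window held the AP-1 motif TGANTCA, which 6.57% of all windows hold. GGAATG on either strand stands in 11.9% of windows, and THBS1 alone had it among the 7 genes with one. THBS1 also had 1 match, not in capitals, to the GAS motif TTCNNNGAA, which 6.57% of windows hold, again alone among the 7. FGF2 and THBS1 each had 1 GCGTG, a motif of the hypoxia-inducible factors (HIF), which 32.2% of windows hold. A match describes the letters only. The GC content was 75.2% in FGF2 and 69.6% in THBS1, against a median of 58.0%.

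VEGFA was 0.43 higher in Mel 290 with SE 0.31 (limma adjusted p = 0.37), VEGFC 0.36 with SE 0.52 (limma adjusted p = 0.66) and PDGFA 0.42 with SE 0.21 (limma adjusted p = 0.21). PGF differed by -0.43 with SE 0.14 (limma adjusted p = 0.086), and both of its Mel 290 arrays lay below the other 4, as in 19.6% of tested genes. The contrasts of 92.1 and Mel 270 with the mean of the others called FGF2 and THBS1 lower and no other gene of the 8, since Mel 290 sets that mean. For comparison, 6.18% of tested genes were called lower in 92.1 and 7.62% in Mel 270. Set directly against Mel 270, a contrast chosen after seeing the data, 92.1 differed by 0.75 in FGF2 with SE 0.16 (limma adjusted p = 0.056) and by 0.07 in THBS1 (limma adjusted p = 0.83). None of the 8 was called there, against 8.05% of tested genes.

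**Figure D3:**
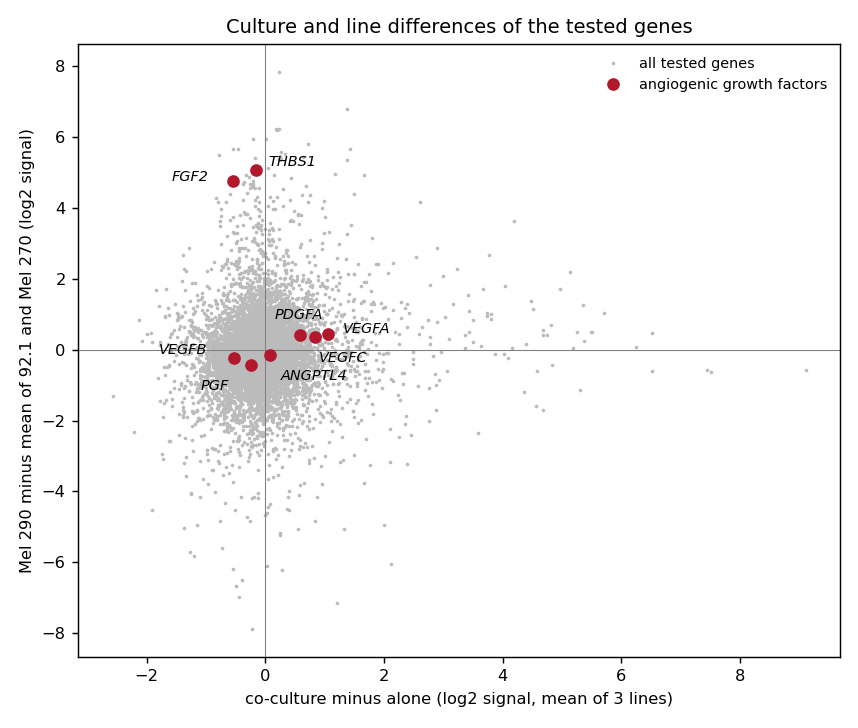
Difference between co-culture and growth alone (horizontal axis, log2, mean of 3 lines) and between Mel 290 and the mean of 92.1 and Mel 270 (vertical axis, log2) for 13808 tested genes in grey and the 8 tested vessel regulators in red. Of the 8, FGF2 and THBS1 stand highest, at 4.77 and 5.08, while VEGFA lies furthest right of the 8, at 1.06.

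Profiles most like that of THBS1 were sought over 6 arrays among 2227 other genes whose values span at least 2. They were those of the cyclin gene CCND2 (r = 0.9999), the peroxidasin gene PXDN (r = 0.9996) and the N-cadherin gene CDH2 (r = 0.9993). In 92.1 and Mel 270, CCND2 and PXDN lay below 5.80 on every array, as did THBS1, and CDH2 lay between 5.69 and 5.92. These genes span at least 2 only through Mel 290, so their r with THBS1 had to be high. BCAR3 (r = 0.999), OSBPL10 (r = 0.998) and EPHX4 (r = 0.997) were most like FGF2. They too span at least 2 only through Mel 290, so their r with FGF2 had to be high. The genes most like VEGFA were LY96 (r = 0.968), MUC1 (r = 0.967) and KDM7A (r = 0.966). Those most like VEGFC were LCTL (r = 0.949), NNMT (r = 0.915) and the RNase gene ZC3H12A (r = 0.904). LY96 lay under 5.80 in 92.1 in both cultures and in Mel 270 grown alone. LCTL lay under 5.80 in 92.1 in both cultures and in Mel 290 grown alone. All these r values are descriptions of 6 arrays that share lines and cultures, and with so many genes searched high values are common.

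Other angiogenic ligands gave 1 call of 21 tested, against 0.413% of all tested genes called higher. CXCL8, a neutrophil attractant that also stimulates endothelial cells, rose by 5.49 ± 0.28 (limma adjusted p = 0.0029). The vasodilator peptide gene ADM differed by 1.49 ± 1.34 (limma adjusted p = 0.20), of which 0.06 in 92.1, 2.71 in Mel 270 and 1.69 in Mel 290. EFNA1, a membrane-bound ephrin, differed by 1.58 ± 2.04, with 1.21 in 92.1, 3.78 in Mel 270 and -0.25 in Mel 290, and SLIT2, a guidance factor, by 1.16 ± 1.05. Neither passed, and the median of the list was 0.04.

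Among 24 tested angiogenesis inhibitors the 3 CXCR3 ligands were called, all higher, against 0.413% of all tested genes. All 3 lay below 5.80 in each line alone and passed the filter only through co-culture, so they had to differ, and with low values raised to 5.80 the differences are lower bounds. CXCL10 was at least 131-fold higher, CXCL11 at least 53.4-fold and CXCL9 at least 38.0-fold (limma adjusted p with raised values 0.0040, 0.0040 and 0.016). These genes attract T cells and are also known to hold back endothelial growth. WARS1, whose tRNA synthetase has an antiangiogenic fragment, differed by 2.58 ± 1.04 without passing (limma adjusted p = 0.075). The thrombospondin paralog THBS2 differed by 0.04 ± 0.27, and the list had a median of 0.03.

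Of 17 tested receptors and co-receptors none was called. The thrombospondin receptor gene CD47 came nearest, with 11.62 in 92.1, 10.96 in Mel 270 and 11.88 in Mel 290 in co-culture, against 10.37, 9.75 and 11.01 alone, a difference of 1.11 ± 0.21 (limma adjusted p = 0.065). The other thrombospondin receptor gene, CD36, was -3.30 in Mel 290, -0.35 in 92.1 and 0.19 in Mel 270. In Mel 290 its signal was 7.54 alone and 4.24 in co-culture, below the filter level of 5.80. The VEGF co-receptor gene NRP1 was 2.96 higher in 92.1, with 8.31 in co-culture and 5.35 alone, and 0.03 and 0.24 apart in Mel 270 and Mel 290. NRP2, which binds VEGFC, was 3.22 higher in Mel 290, with 10.57 in co-culture and 7.34 alone, and 0.09 and 0.28 apart in 92.1 and Mel 270. FLT1, KDR and TEK lay below 5.80 on every array. None of 14 processing and matrix genes was called either, with MMP1 at 1.37 ± 2.03, PLAT, the plasminogen activator, at 1.27 ± 1.54, LOX at 0.64 ± 0.32 and MMP14 at 0.64 ± 0.47.

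VEGFA and ANGPTL4 are targets of the hypoxia-inducible factors, and 26 genes of oxygen sensing and of that response were tested. None was called, and their median difference was 0.28, against -0.04 for all tested genes. By count, with no test between lines, 9 of 26 were at least 2-fold higher in co-cultured Mel 270, 2 in 92.1 and 0 in Mel 290, against 5.29%, 3.63% and 2.07% of all tested genes. In Mel 270 these were SLC2A3 (3.22), NDRG1 (1.90), BHLHE40 (1.73), EPAS1 (1.61), SLC2A1 (1.34), AK4 (1.26), ANKRD37 (1.13), P4HA2 (1.08) and DDIT4 (1.03). SLC2A1 and SLC2A3 encode glucose transporters and EPAS1 one of the factors themselves. Over the 3 lines SLC2A3 differed by 1.14 ± 1.80, DDIT4 by 1.04 ± 0.87, AK4 by 1.02 ± 0.55 and EPAS1 by 0.76 ± 0.90. The lowest means of the list were LDHA at -0.57 ± 0.74, ENO1 at -0.46 ± 0.37, ALDOA at -0.38 ± 0.23 and PGK1 at -0.32 ± 0.33. In Mel 270 these genes differed by 0.27, -0.04, -0.19 and 0.07. LDHA, at -1.10 in 92.1, was the 1 gene of the 26 at least 2-fold lower in any line. Of the 26, 6 were higher in all 3 lines and 2 were lower. Oxygen in the cultures was not measured, and its part in the VEGFA values was not tested. For ANGPTL4, 9 genes of the PPAR nuclear receptors and their targets were also tested, with no call, a median of -0.34 and PDK4, a brake on glucose oxidation, at -1.37 ± 0.91. The fatty acid binding FABP3 differed by -1.22 ± 1.58 and CPT1A, of fatty acid import into mitochondria, by -0.50 ± 0.31.

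**Figure D4:**
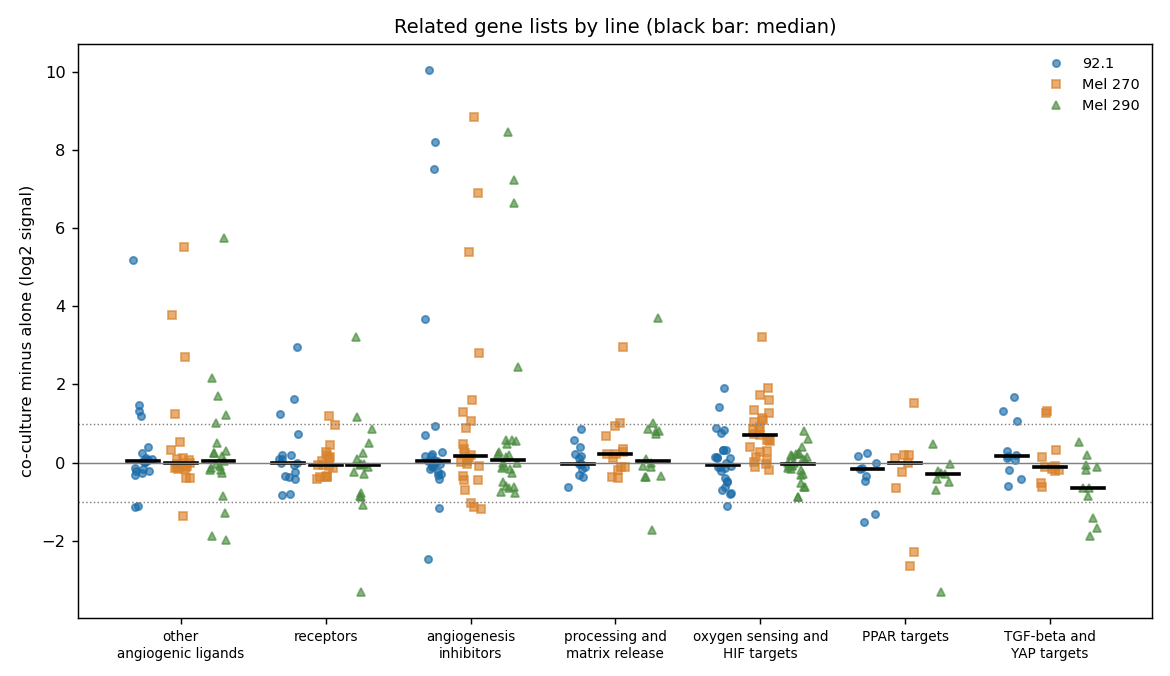
Difference between co-culture and growth alone in log2 signal (vertical axis) for each tested gene of 7 related lists, by line, with black bars at medians and dotted lines at 2-fold. The chemokine genes CXCL8, CXCL9, CXCL10 and CXCL11 make up the top points (below 5.80 alone for the last 3 of these), and the oxygen sensing list sits higher in Mel 270, with a median of 0.71, than in 92.1 (-0.05) or Mel 290 (-0.04).

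THBS1 is a known target of TGF-beta and of YAP, and of 11 tested genes of that list none was called in co-culture (median -0.23). SKIL differed by 0.76 ± 0.77, ANKRD1 by -0.75 ± 0.62, SMAD7 by 0.70 ± 0.51 and CCN2 by -0.64 ± 1.08. Between lines, 5 of the 11 were called higher in Mel 290 and 0 lower, against 11.3% and 14.9% of all tested genes. These were CCN1 (5.52), AXL (4.43), TGFBI (3.06), AMOTL2 (1.46) and ANKRD1, with limma adjusted p between 0.00048 and 0.0099. Higher calls in Mel 290 were also frequent in other lists, with 8 of 21 ligands, 8 of 17 receptors and 9 of 24 inhibitors. In these lists 1, 4 and 2 were called lower. The part of TGF-beta or YAP in the THBS1 values was not tested. ANKRD1 lay below 5.80 in the other lines and passed the filter only through Mel 290, so its difference is at least 3.02, with low values raised to 5.80. The ligand gene TGFB2 was 5.49 higher in Mel 290 and TGFB1 1.80 higher. Other ligand genes called higher there included PDGFC (3.50) and FGF5, which passed the filter only through Mel 290 and was at least 4.44 higher on the same terms. Among receptors, PDGFRB was 3.33 and NRP1 3.34 higher in Mel 290, whereas CD36 was lower (-4.94). In the processing list 8 of 14 were called higher and 1 lower, PCSK6 (-1.17), against 11.3% and 14.9% of all tested genes. Of the 8, CCBE1, MMP1 and LPL passed the filter only through Mel 290, and CCBE1, which helps to activate VEGFC, was at least 4.13 higher. HPSE, also of the 8, was not called with low values raised to 5.80 (limma adjusted p = 0.066). The collagen cross-linking LOX was 5.44 higher and the urokinase receptor gene PLAUR 4.31. With low values raised to 5.80, the Mel 290 differences were 5.19 for TGFB2, 3.12 for PDGFC, 3.25 for PDGFRB and 2.94 for NRP1. On these terms LOX had 4.92, TGFBI 2.89 and CD36 -4.16. As given above, Mel 290 also had lower pigment cell markers, with MITF and SOX10 still above 5.80, and denser wells, and the part of either in these values was not tested.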

How the data were processed

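Total RNA of 6 cultures was measured on Affymetrix gene arrays. The deposited values are log2 signals per probe set, made with Affymetrix Expression Console 1.2.0.20 per the submitters' processing notes. How the signals were summarized and normalized is not stated there or in the labels. The scale was read from the range of 1.49 to 13.9, and values were used as deposited. Of 33297 probe sets the annotation listed 21214, of which 19460 had 1 symbol and 1754 several. The other 12083 are unnamed here. Of those with 1 symbol, 19429 took their current symbol from RefSeq by gene ID and 31 kept the array's. A gene with more than 1 probe set was represented by its brightest on average.

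limma 3.58.1 in R 4.3.3 fitted culture and cell line (2 residual degrees of freedom, prior 3.10), with Benjamini-Hochberg adjustment over 13808 genes. Arrays of a line are a pair because they are the same cell line, and their deviations from the group means correlated at 0.65 to 0.77. Across all probe sets, arrays of a line correlated at 0.962 to 0.980, and 92.1 and Mel 270 alone at 0.966. With 3 pairs the smallest two-sided exact permutation p is 0.25. P-values of the co-culture comparison measure the spread of the culture difference between lines, not the spread of levels between lines. The fit was tested on simulated data. The 10 genes and the lists were chosen with earlier results of these data known. The rule named all 10 genes, list genes past the threshold or with the 4 largest mean differences, partners of the 10 genes, and the 3 genes most like each gene that spans at least 2. Marker genes, NDRG1 and other genes named for 2-fold differences in Mel 270, and those named for Mel 290, were taken from the lists after their values were seen. So were LDHA, ENO1, ALDOA and PGK1. RefSeq sequences are of GRCh38.p14, from 250 bases before the start. The motifs ACGTG and GCGTG (HIF), GC box, GAS, AP-1, TEAD, TATA and NF-kappaB were searched on both strands. In each printed window only 1 of these motifs is in capitals. Windows were matched for 7 of the 10 genes. Alternatives changed the filter, low values, normalization, probe set choice, variance prior, block and lines.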

Additional observations from a re-analysis of the deposited data

Results flagged for a closer look

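VEGFC was picked out because its lines moved apart by at least 0.5 on the log2 scale in opposite directions. Co-culture minus growth alone was -0.6166 in 92.1, 1.1669 in Mel 270 and 1.9594 in Mel 290. Each value rests on 1 array per condition, so the difference between lines was not tested.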

How the results depend on the processing

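With 3 lines and 1 array per line and condition, intervals are wide. None of the vessel regulators tested was called in co-culture under any of the 12 other settings, of which a filter at the median left only 5 of them to test, nor were ANGPT1 (-0.03, limma adjusted p = 0.95) and ANGPT2 (0.10, limma adjusted p = 0.80) without a filter. VEGFA ranged from 0.65 to 1.35 (limma adjusted p 0.12 to 0.83) and FGF2 from -0.58 to -0.45 (limma adjusted p 0.10 to 1.00). The 62 genes called in all became 41 after cyclic loess, 18 with no replicate block, which removes the pairing by line, and 49 to 85 with a line left out; the cause of these shifts was not tested. The block changed no call of the 8. VEGFC was 1.56 without 92.1 and 0.28 without Mel 290, and neither was called. ANGPTL4 turned to -0.057 without Mel 290 and was 0.18 without 92.1, never called. With a filter at the median the line contrasts of Mel 290, Mel 270 and 92.1 called 1 gene each in place of 2, because THBS1 was no longer tested. PGF in Mel 270 against the others was 0.02 and turned to -0.0033 after cyclic loess; the cause was not tested. When 92.1 was set against Mel 270 alone, as chosen after seeing the data, called genes went to 1112, against 2197, called vessel regulators to 0, against 2, and FGF2 (0.75) and THBS1 (0.069) turned sign because Mel 290 was no longer in the comparison. The other 282 single-gene values under the other settings kept their direction and side of the threshold, as did 6 against Mel 270 alone; for ANGPT1 and ANGPT2 only the direction could be compared.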
